A study of Mus musculus with 14 samples.

Results

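The bHLH genes Myod1, Myf5, Myf6, Myog, Hand1, Hand2, Mesp1, Mesp2, Twist1 and Tcf15, 10 genes for regulators of mesoderm and muscle, were examined for H3K27me3 in mouse embryonic stem cells (mESCs). They were taken as a named list, and each gene was represented by the peaks of the count table that lay within 10 kb of its RefSeq gene body (mm10). This gave 48 distinct peaks of 74458 in the table, and every one of the 10 genes had at least 3. For comparison, 17003 of 21887 protein-coding genes (77.7%) had a peak within 10 kb, with a median of 2 peaks.

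H3K27me3 was profiled by Cut&Tag, in which an antibody directs the transposase Tn5 to a histone mark so that adapters are inserted beside it. The libraries asked whether loss of a Polycomb loop anchor changes the mark elsewhere in the genome. There were 3 libraries of cells with a Hoxa deletion (Hoxa2 to Hoxa13), 2 with a Wnt6 deletion and 2 with an Hmx1 deletion. All carried homozygous CRISPR-Cas9 deletions made in G4 mESCs, a hybrid of 129/Sv and C57BL/6, and were grown with LIF on CD1 feeder cells. The table holds no unedited cells, so each deletion was compared with the other 2 pooled, and a library that is treated in 1 comparison is a control in the others. Words such as higher, lower, rose and fell are therefore relative to the other deletions, not to unedited cells. The cells of each deletion are called a clone in the study, and the labels name no separate clones or cultures, so that the deletion cannot be told apart from the clone and p-values measure the spread between libraries only.

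Factors of the bHLH class bind DNA as dimers through a basic region next to a helix-loop-helix, usually at the short E-box motif CANNTG, and partner with the broadly expressed E proteins. Myod1, Myf5, Myf6 and Myog commit cells to skeletal muscle and drive its differentiation, Mesp1 and Mesp2 act in early cardiac mesoderm and in segmentation of the somites, Tcf15 keeps somites epithelial, Hand1 and Hand2 act in heart, limb and lateral mesoderm, and Twist1 acts in mesenchyme. In mESCs many lineage genes are kept silent and carry H3K27me3 laid down by Polycomb repressive complex 2 over CpG-rich DNA around their starts. Whether each of the genes named here is silent in these cells was not tested, since no expression was analysed.

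Because of this tie to CpG-rich DNA, the 250 bases upstream of the RefSeq start (GRCm38.p6) are shown for 5 genes that differ in it, 5′ to 3′ on the strand of the gene, with each CpG in capitals. Twist1 (chr12:33957421-33957670, plus strand) is the richest and Myf5 (chr10:107486135-107486384, minus strand) and Mesp1 (chr7:79793591-79793840, minus strand) the poorest of those with a sequence. Mesp2 (chr7:79810477-79810726, plus strand) and Hand2 (chr8:57320733-57320982, plus strand) are shown because their H3K27me3 differed between deletions.
Twist1: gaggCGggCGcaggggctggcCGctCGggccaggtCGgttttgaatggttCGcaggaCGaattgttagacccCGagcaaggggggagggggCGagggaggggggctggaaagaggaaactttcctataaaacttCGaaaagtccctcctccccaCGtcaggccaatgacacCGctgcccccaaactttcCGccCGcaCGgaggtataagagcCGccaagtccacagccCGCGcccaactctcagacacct
Hand2: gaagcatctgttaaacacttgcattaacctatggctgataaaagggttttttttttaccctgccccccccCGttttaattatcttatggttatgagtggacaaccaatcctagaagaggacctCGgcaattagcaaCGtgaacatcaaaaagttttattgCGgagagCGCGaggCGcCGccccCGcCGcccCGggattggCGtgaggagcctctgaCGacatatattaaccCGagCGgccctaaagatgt
Mesp2: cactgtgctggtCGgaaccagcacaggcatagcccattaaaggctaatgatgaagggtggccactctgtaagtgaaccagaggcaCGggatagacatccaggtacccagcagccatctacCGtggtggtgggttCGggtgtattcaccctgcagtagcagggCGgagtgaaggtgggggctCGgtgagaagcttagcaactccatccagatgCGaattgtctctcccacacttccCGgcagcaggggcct
Mesp1: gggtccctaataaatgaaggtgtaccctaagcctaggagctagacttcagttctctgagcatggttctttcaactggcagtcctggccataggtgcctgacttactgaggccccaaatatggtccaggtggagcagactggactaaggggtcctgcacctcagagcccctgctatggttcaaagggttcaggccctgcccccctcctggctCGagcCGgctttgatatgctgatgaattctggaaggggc
Myf5: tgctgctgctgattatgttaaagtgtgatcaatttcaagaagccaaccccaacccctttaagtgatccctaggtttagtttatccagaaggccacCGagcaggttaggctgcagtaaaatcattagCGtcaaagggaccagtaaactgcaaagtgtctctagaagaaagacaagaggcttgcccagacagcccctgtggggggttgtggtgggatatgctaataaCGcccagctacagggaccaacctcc
A promoter window of 300 bases (250 upstream and 50 downstream) was matched for 6 of the 10 genes, the 5 above and Myog. The window of Twist1 held 27 CpGs (percentile 81.2 of protein-coding windows) and that of Hand2 held 17 (percentile 59.7). Mesp2 had 10, Myog 9, Mesp1 4 and Myf5 3, against a median of 13 over 21263 protein-coding windows. Windows overlapped by a peak, by any number of bases, had a median of 22 CpGs and the other windows 3, and the counts of Mesp1 and Myf5 were near the latter. A peak overlapped the window in 5 of the 6 genes, against 55.9% of protein-coding windows. It spanned the whole window at Twist1, Mesp1 and Mesp2 and part of it at Myog. At Myf5 it reached only the bases downstream of the start used for the window. Hand2 was the exception, and its nearest peaks lay 974 bp upstream and 389 bp downstream of the start. The window of Myf5, with the bases printed above, lies inside the RefSeq gene body (chr10:107482908-107486927). Its start is therefore not the outer end of that body, which another peak (chr10:107486729-107486963) overlaps. The E-box letters CANNTG, a palindrome and therefore the same on both strands, were in 4 of the 6 windows, against 72.3% of all 32851 windows.

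Levels are given as CPM, the counts over a peak or over all peaks of a gene set to a common library size with trimmed mean of M values (TMM) factors, and are compared between genes as CPM per kb of peak. Over the 7 libraries, Myod1 was the most strongly marked per length, at 61.2 CPM per kb (percentile 97.5 of genes with a peak), followed by Hand1 at 58.9, Hand2 at 51.9, Twist1 at 51.0 and Mesp1 at 49.6. Myog (33.6), Mesp2 (24.9), the shared peaks of Myf5 and Myf6 (16.6) and Tcf15 (10.6) were lower, and the median of all genes was 10.9 CPM per kb. Tcf15 lay near that median only as a mean over deletions, with 13.5 to 15.0 CPM per kb in the Hoxa deletion libraries and 5.97 to 9.28 in the others. The place of Hand2 also differed, with means of 41.0 CPM per kb in the Hoxa deletion, below Twist1 and Mesp1, and 62.3 in the Hmx1 deletion, above Hand1. Among neighbours in this order, the ranges over libraries overlapped from Myod1 (56.2 to 64.1) to Hand1 (54.8 to 61.9), Hand2 (37.8 to 62.9), Twist1 (45.9 to 55.8) and Mesp1 (44.8 to 52.0). The order of neighbours among these 5 genes also varied from library to library, and the range of Hand2 includes its difference between deletions. Mesp1 did not overlap Myog (28.8 to 39.7). The range of Myog overlapped that of Mesp2 (21.6 to 29.1), although Myog was above Mesp2 within every library. Mesp2 did not overlap Myf5 and Myf6 (14.4 to 19.6), which overlapped Tcf15 (5.97 to 15.0).

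**Figure D1:**
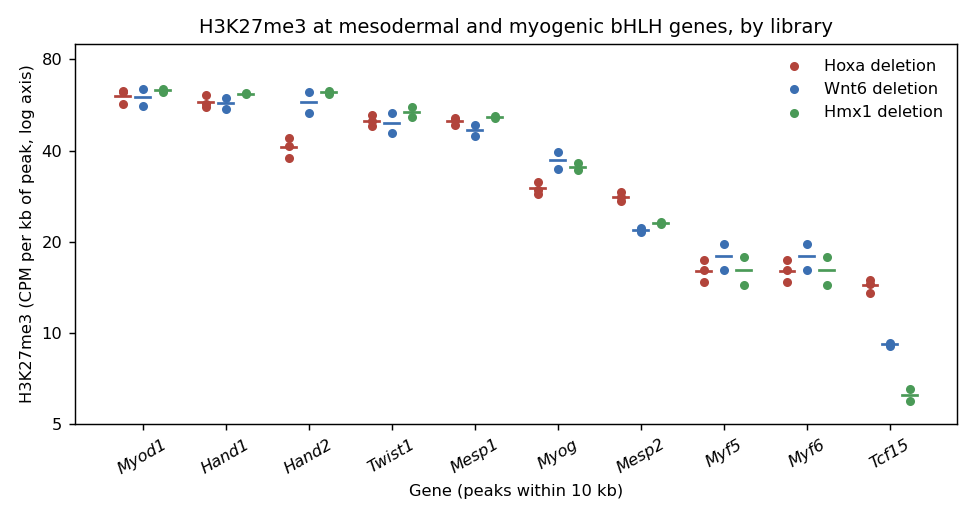
H3K27me3 at the 10 genes, in CPM per kb of peak on a log axis. Points are single libraries, coloured by deletion, and short bars are means of each deletion. Means over the 7 libraries run from 10.6 (Tcf15) to 61.2 CPM per kb (Myod1). Hand2 is lower and Mesp2 and Tcf15 are higher in all 3 Hoxa deletion libraries.

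The median width of the 48 peaks was 595 bp against 476 bp for all peaks, and wide peaks were more frequent among them. Peaks over 2000 bp made up 6 of the 48 (12.5%) against 3.08% of all peaks, and 5 of the 10 genes had such a peak, against 12.2% of protein-coding genes. They were at Myod1, Mesp1, Mesp2 and Twist1 (which had a pair), and in the window of Myog. The wide peak near Myog (chr1:134297916-134300396) lay 5368 bp beyond the gene, over Ppfia4 and Gm32267, and the peaks over Myog itself were 751 and 254 bp wide.

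Total counts per library ranged from 6016500 to 36563541, of which 11852 to 68984 fell in the 48 peaks. Over the deleted genes, the Hoxa deletion libraries held 0.101% to 0.160% of the level of the others, the Wnt6 deletion 3.15% to 3.18% and the Hmx1 deletion 0.227% to 0.403%. The Hoxa deletion libraries stood apart on chromosome 8, which took 5.45% to 5.49% of their counts and 7.81% to 7.95% of those of the others. Hand2 is the only one of the 10 genes on that chromosome, and the other genes were also tested without it. Genes that mark mESCs and are active there had a median of 8.66 CPM per kb over the 6 of 8 with a peak. Sox2 (18.5) and Esrrb (17.7) were above the median of all genes, and Klf4 (10.2), Zfp42 (7.14), Pou5f1 (6.18) and Nanog (5.73) were below it. Genes of feeder fibroblasts had 9.79 over 7 of 8, and none of those 7 passed in any comparison.

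In the Hoxa deletion, H3K27me3 was higher over Tcf15 and Mesp2 and lower over Hand2 and around Myog, while the log2 fold changes of the other 6 genes lay between -0.11 and 0.01 and did not pass. Summed over the peaks of each gene, 2 of 10 genes were higher and 2 lower at an adjusted p under 0.05 in edgeR, where 12.4% of all genes tested were higher and 6.40% lower. For the same 4 genes the Hoxa deletion libraries did not overlap the other libraries, as held upward for 17.7% and downward for 8.36% of all genes. With chromosome 8 left out, an alternative added after seeing the data, Tcf15, Mesp2 and Myog passed as before. For single peaks, edgeR called 0 of 48 at a fold over 2 and an adjusted p under 0.05 (1.55% of all peaks), as did DESeq2, while leaving out the Wnt6 deletion replicate 2 gave 2 calls, at Tcf15 and Hand2. Without the fold minimum, 4 member peaks were higher and 14 lower (4.32% and 4.20% of all peaks), and 24 had an unadjusted p under 0.05 (20.8% of all peaks). Of the 14 lower peaks, 12 were those of Hand2 and the other 2 lay over Ppfia4 in the window of Myog. The median log2 fold change of the 48 peaks was -0.07, or 0.01 without Hand2, and that of all peaks was -0.01.

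**Figure D2:**
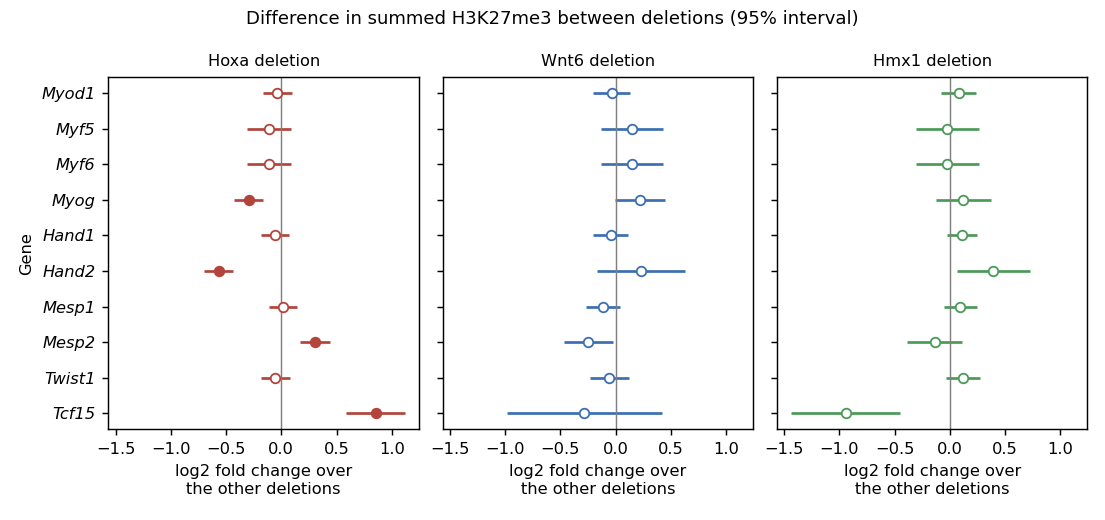
Log2 fold change of the summed H3K27me3 of each gene in 1 deletion over the other 2 pooled, with its 95% interval. Filled points passed an adjusted p under 0.05 in edgeR. They are Tcf15 (0.85), Mesp2 (0.30), Myog (-0.29) and Hand2 (-0.56), all in the Hoxa deletion, and open points are the remaining values.

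Of the 4 myogenic regulators, Myod1 (chr7:46376474-46379092), which can turn fibroblasts into muscle, was the most evenly marked. Its sum was 230, 209 and 229 CPM in the Hoxa deletion libraries, 234 and 206 CPM in the Wnt6 deletion and 229 and 235 CPM in the Hmx1 deletion. The 3 deletions overlapped, and the log2 fold change of the Hoxa deletion was -0.04 (95% interval -0.17 to 0.09). Nearly all of the signal was in a single peak of 2699 bp over the gene (chr7:46375988-46378687), with 212 ± 10.4 CPM in the Hoxa deletion (SD, n = 3), 210 ± 20.5 CPM in the Wnt6 deletion and 221 ± 3.62 CPM in the Hmx1 deletion (SD, n = 2 each).

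Myf5 (chr10:107482908-107486927) and Myf6 (chr10:107492848-107494723), neighbours that act at the onset of myogenesis and in later muscle, could not be separated by the 10 kb rule, since both took the same 3 peaks. The sum was 38.2, 35.6 and 32.4 CPM in the Hoxa deletion libraries, 43.2 and 35.5 CPM in the Wnt6 deletion and 31.8 and 39.2 CPM in the Hmx1 deletion. The groups overlapped, with a log2 fold change of -0.11 (95% interval -0.31 to 0.09) in the Hoxa deletion. Given to the nearer gene alone, the pair of peaks over Myf5 held 12.4 CPM on average and the peak over Myf6 held 24.2 CPM. The larger of the peaks over Myf5 (chr10:107485445-107486106) differed by 0.07 in the Hoxa deletion (-0.23 to 0.38) and the one over Myf6 (chr10:107493428-107494736), the strongest per kb of the 3, by -0.17 (-0.42 to 0.07).

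Myog (chr1:134290004-134292548), which drives the terminal differentiation of myoblasts, had its difference outside the gene. Its sum was 118, 115 and 126 CPM in the Hoxa deletion libraries, 158 and 139 CPM in the Wnt6 deletion and 138 and 145 CPM in the Hmx1 deletion. Every Hoxa deletion library was below every other library, with a log2 fold change of -0.29 (95% interval -0.43 to -0.16, adjusted p = 0.000725 in edgeR). The peak over the start of Myog (chr1:134289962-134290713) held 7.99, 10.3 and 10.8 CPM in the Hoxa deletion, 10.1 and 10.1 CPM in the Wnt6 deletion and 9.80 and 8.11 CPM in the Hmx1 deletion, where the groups overlapped (log2 fold change 0.06, 95% interval -0.24 to 0.36). The other peak within the gene also overlapped, at -0.11 (-0.63 to 0.42). The lower signal was in the peaks over Ppfia4, a scaffold protein gene, at 134296990 (log2 fold change -0.72, adjusted p = 0.000804 in edgeR) and in the wide one at 134297916 (-0.27, adjusted p = 0.0298 in edgeR). Other peaks within 1 Mb of Myog had a median of 0.12 in the Hoxa deletion (162 peaks, 13 higher and 0 lower). Of all peaks, 4.32% were higher and 4.20% lower at an adjusted p under 0.05. Myog is also the only one of the 10 genes on a chromosome with a deleted anchor, 59.5 Mb from Wnt6. In the Wnt6 deletion its sum differed by 0.22 (95% interval -0.01 to 0.44, adjusted p = 0.870 in edgeR).

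Mesp1 and Mesp2 are neighbours on chromosome 7 that are read in opposite directions, and only Mesp2 passed in the Hoxa deletion. Mesp1 (chr7:79792241-79793590), a factor at the top of cardiac mesoderm formation, had 200, 209 and 212 CPM in the Hoxa deletion libraries, 201 and 185 CPM in the Wnt6 deletion and 215 and 212 CPM in the Hmx1 deletion. The Hoxa and Wnt6 deletions overlapped, both Hmx1 deletion libraries lay narrowly above the others, and the log2 fold change of the Hoxa deletion was 0.01 (95% interval -0.11 to 0.14). Its main peak (chr7:79791598-79794188) covers the whole gene and its start, and differed by 0.00 (-0.15 to 0.15).

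Mesp2 (chr7:79810727-79813431), which sets the borders between somites, had 128, 123 and 120 CPM in the Hoxa deletion libraries, 94.6 and 97.7 CPM in the Wnt6 deletion and 101 and 102 CPM in the Hmx1 deletion. All 3 Hoxa deletion libraries lay above the other 4, and the log2 fold change was 0.30 (95% interval 0.17 to 0.44, adjusted p = 0.000450 in edgeR). The main peak over the start (chr7:79809524-79811856) had 100.04, 91.2 and 89.8 CPM in the Hoxa deletion against 73.7 to 80.3 CPM in the others (log2 fold change 0.28, adjusted p = 0.0259 in edgeR). A pair of small peaks downstream of the gene, at 79818425 and 79821080, were higher by 0.71 and 0.73 on the log2 scale (adjusted p = 0.0489 and 0.0370 in edgeR). They held 3.25 to 4.23 CPM in the Hoxa deletion and 1.96 to 2.87 CPM elsewhere, which are few counts in the smaller libraries.

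The ratio of the main peak of Mesp2 to that of Mesp1, a measure chosen after the values were seen, was set within each library. On the log2 scale it was -0.857, -0.999 and -1.08 in the Hoxa deletion libraries, -1.26 and -1.17 in the Wnt6 deletion and -1.35 and -1.25 in the Hmx1 deletion. The Hoxa deletion libraries were above the others, with means that differed by 0.28. This is given as a description without a p-value, because the measure was picked from these same values. Other peaks within 1 Mb of the pair had a median of 0.00 in the Hoxa deletion (141 peaks, 3 higher and 0 lower). Of all peaks, 4.32% were higher and 4.20% lower at an adjusted p under 0.05.

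Tcf15 (chr2:152143056-152149097), also called paraxis, had the lowest signal and varied most in relation to it, with a coefficient of variation of 35.7% over the 7 libraries against 4.95% to 20.8% for the others. The sum was 21.0, 22.6 and 23.3 CPM in the Hoxa deletion libraries, 14.1 and 14.5 CPM in the Wnt6 deletion and 9.30 and 10.2 CPM in the Hmx1 deletion. No 2 deletions overlapped. The Hoxa deletion was 1.81 times the others, a log2 fold change of 0.85 (95% interval 0.59 to 1.12, adjusted p = 2.29e-06 in edgeR). Against the Wnt6 deletion alone the log2 fold change was 0.63 (adjusted p = 5.48e-05 in edgeR) and against the Hmx1 deletion alone it was 1.16 (adjusted p = 9.94e-09 in edgeR). The Wnt6 deletion exceeded the Hmx1 deletion by 0.53 without passing (adjusted p = 0.131 in edgeR).

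Most of the signal of Tcf15 was in a peak of 1012 bp within the gene (chr2:152143166-152144178), with 17.8 ± 1.17 CPM in the Hoxa deletion (SD, n = 3), 11.4 ± 0.0879 CPM in the Wnt6 deletion and 7.46 ± 0.202 CPM in the Hmx1 deletion (SD, n = 2 each). Its log2 fold change in the Hoxa deletion was 0.90 (adjusted p = 1.37e-05 in edgeR). The peaks on either side had 3.08 and 1.48 CPM on average in the Hoxa deletion against 1.91 and 0.663 CPM in the others, and neither passed. Other peaks within 1 Mb had a median of 0.07 (167 peaks, 14 higher and 0 lower). Of all peaks, 4.32% were higher and 4.20% lower at an adjusted p under 0.05, so that higher peaks were also found around the gene.

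**Figure D3:**
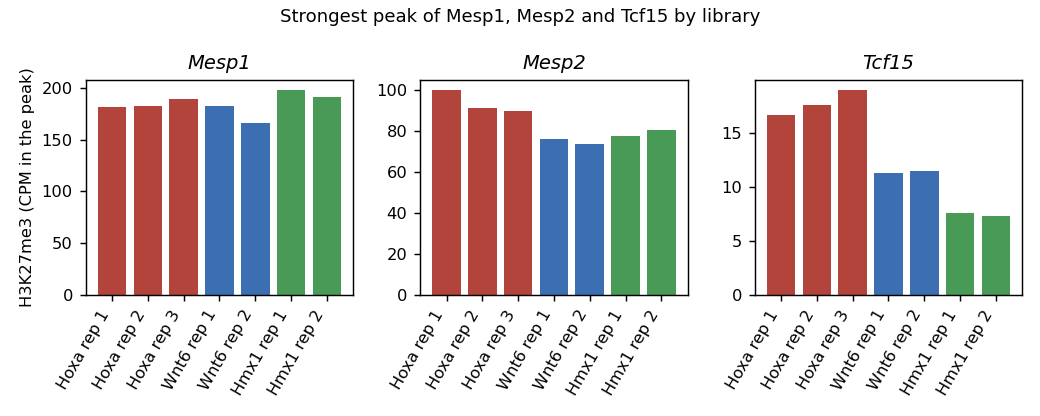
H3K27me3 in the strongest peak (per kb) of Mesp1, Mesp2 and Tcf15, in CPM, with 1 bar for each library and axes that start at 0. The bars of Mesp1 overlap between the Hoxa and Wnt6 deletions and are tallest in the Hmx1 deletion, those of Mesp2 are tallest in the 3 Hoxa deletion libraries, and those of Tcf15 descend from Hoxa (17.8 CPM on average) through Wnt6 (11.4) to Hmx1 (7.46).

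Against the Wnt6 deletion alone, Tcf15, Mesp2, Myog and Hand2 passed as the only 4 of the 10 genes (15.0% of all genes), and the number against the Hmx1 deletion alone was also 4 (22.4% of all genes). Between the Wnt6 and Hmx1 deletions edgeR passed 0 of 10 genes (1.11% of all genes). Of the 10 genes, 1, Tcf15, had an unadjusted p under 0.05, close to the share of all genes at that threshold. Both comparisons with the Hoxa deletion use the same 3 libraries.

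The Hand genes differed from each other. Hand1 (chr11:57828713-57832147), a factor of the placenta, heart and lateral mesoderm, had 363, 340 and 331 CPM in the Hoxa deletion libraries, 356 and 326 CPM in the Wnt6 deletion and 365 and 368 CPM in the Hmx1 deletion. The Hoxa and Wnt6 deletions overlapped, and the log2 fold change of the Hoxa deletion was -0.05 (95% interval -0.18 to 0.07). Its 9 peaks spanned chr11:57820138-57841563, and the strongest per kb (chr11:57829957-57830610) lay within the gene at 89.5 CPM per kb.

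Hand2 (chr8:57320983-57324517), needed for the right ventricle and the limb bud, had 413, 388 and 355 CPM in the Hoxa deletion libraries, 584 and 501 CPM in the Wnt6 deletion and 578 and 591 CPM in the Hmx1 deletion. Every Hoxa deletion library was below the other 4. The Hoxa deletion stood at 67.6% of the others, a log2 fold change of -0.56 (95% interval -0.70 to -0.43, adjusted p = 5.38e-09 in edgeR). All 12 peaks were lower at an adjusted p under 0.05, by 0.45 to 0.96 on the log2 scale, with a median of -0.54. The strongest, downstream of the start (chr8:57321372-57322635), had 93.5, 86.9 and 87.4 CPM in the Hoxa deletion, 132 and 115 CPM in the Wnt6 deletion and 140 and 132 CPM in the Hmx1 deletion. The largest difference was in a peak over the antisense transcript Hand2os1 (chr8:57313691-57314477), with a mean of 11.97 CPM against 23.4 CPM in the others.

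Hand2 was lower in the Hoxa deletion together with its chromosome. The 5579 peaks of chromosome 8 had a median log2 fold change of -0.59 in the Hoxa deletion. At an adjusted p under 0.05 in edgeR, 2276 of them (40.8%) were lower. Other peaks within 1 Mb of Hand2 had a median of -0.71 (75 peaks, 0 higher and 38 lower). On chromosome 8, 917 of 933 gene sums were below 0, with a median of -0.51. Of those gene sums, 39.4% were lower than that of Hand2. With the median of each chromosome removed from every library, Hand2 was at 0.01 (adjusted p = 0.935 in edgeR). As a share of all other chromosome 8 peaks, the log2 ratio of Hand2 differed between the Hoxa deletion and the others by -0.01, and the libraries overlapped. This ratio too was chosen after the values were seen, so no p-value is given for it. With no input or genomic DNA analysed here, the number of chromosome copies and the mark per copy cannot be told apart. Without unedited cells, a low Hoxa deletion and high Wnt6 and Hmx1 deletions on this chromosome cannot be told apart either.

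**Figure D4:**
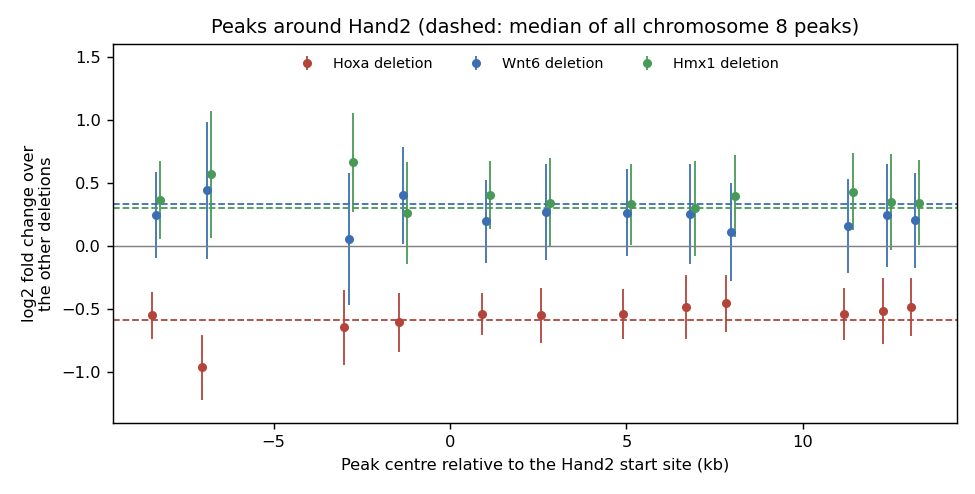
Log2 fold change of the 12 peaks around Hand2 against the distance of the peak centre from the start site in kb, for each deletion over the other 2 pooled, with 95% intervals. Dashed lines are medians of all chromosome 8 peaks. The peaks of the Hoxa deletion lie between -0.96 and -0.45, around the chromosome median of -0.59, on both sides of the start.

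Over the 7 libraries, the 10 genes whose level followed Hand2 most closely (Pearson r of log2 CPM between 0.994 and 0.999) were Igf2bp2, Nae1, Helt, Car7, Crocc2, Slc7a2, Irf8, 2310061N02Rik, Rab20 and Spock3. Of these, 7 lie on chromosome 8, which holds 5.93% of the 13870 genes compared, and these values share the 7 libraries with the level of Hand2.

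Twist1 (chr12:33957671-33959831), a factor of mesenchyme and the cranial sutures, was marked evenly. It had 353, 337 and 324 CPM in the Hoxa deletion libraries, 357 and 309 CPM in the Wnt6 deletion and 348 and 375 CPM in the Hmx1 deletion. The 3 deletions overlapped, with a log2 fold change of -0.05 (95% interval -0.19 to 0.08) in the Hoxa deletion. The peak over its start (chr12:33956733-33959063) was among the densest of the members, at 88.0 CPM per kb (percentile 99.2 of all peaks), and differed by -0.08 (-0.22 to 0.07).

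In the Wnt6 deletion, no member passed against the pooled others. In that fit, differences between the Hoxa and Hmx1 deletions count as spread between libraries. EdgeR called 0 of 48 peaks (0.0497% of all peaks) and passed 0 of 10 gene sums (0.0412% of all genes), and so did DESeq2. At an unadjusted p under 0.05 there were 5 peaks (5.20% of all peaks) and 1 gene sum, that of Mesp2 (5.45% of all genes). Mesp2 differed by -0.25 (95% interval -0.47 to -0.02, adjusted p = 0.870 in edgeR). The median of the 48 peaks was -0.03, and that of all peaks was 0.00.

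In the Hmx1 deletion, Tcf15 was lowest and Hand2 highest without passing against the pooled others. In that fit, differences between the Hoxa and Wnt6 deletions count as spread between libraries. EdgeR called 0 of 48 peaks (0.0282% of all peaks) and passed 0 of 10 gene sums (0.0765% of all genes), with 13 peaks (8.95%) and 2 gene sums (15.2%) at an unadjusted p under 0.05. Tcf15 differed by -0.94 (95% interval -1.44 to -0.45, adjusted p = 0.125 in edgeR) and Hand2 by 0.39 (0.06 to 0.73, adjusted p = 0.250 in edgeR). All chromosome 8 peaks had a median of 0.30 in this comparison, where the pooled others include the Hoxa deletion libraries. Most of the 13 peaks were peaks of Hand2. The median of the 48 peaks was 0.11, or 0.04 without Hand2, and that of all peaks was -0.01. DESeq2 passed Tcf15 alone, at -0.96 (adjusted p = 0.00276 in DESeq2), and called its main peak. In edgeR, Tcf15 also passed with the Wnt6 deletion replicate 2 left out (adjusted p = 0.0319). It passed with a term for each genotype too (adjusted p = 1.17e-05), where 11.3% of all genes passed, against 0.0765% in the pooled fit. The main peak of Tcf15 was called with either Wnt6 deletion library left out. By overlap alone, 1 gene was lower in both Hmx1 deletion libraries than in every other (Tcf15, against 14.4% of all genes), and 2 were higher (Hand1 and Mesp1, against 6.64%).

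Of 15 other mesodermal and muscle bHLH genes, 2 rose and 2 fell in the Hoxa deletion, where 12.4% of all genes were higher and 6.40% lower, so that the number that rose was near the share over all genes. Msgn1, a presomitic mesoderm factor (log2 fold change 0.47), and Tcf23 (0.40) were higher. Lyl1 (-0.50), a blood factor on chromosome 8, and Ferd3l (-0.30) were lower. The list had a median of 42.2 CPM per kb, from Bhlha15 at 5.21 to Hey2 at 73.7. The Id proteins block bHLH factors by forming dimers that cannot bind DNA. Of the 6 dimer partners and Id inhibitors, Id1 rose by 0.59 (adjusted p = 0.00191 in edgeR) and Id2 fell by 0.20 (adjusted p = 0.0160 in edgeR). Id1, on chromosome 2 like Tcf15, was also lower in the Hmx1 deletion, at -0.98 (adjusted p = 0.0433 in edgeR), where it was the single gene of these lists to pass. Its level was 23.8 ± 0.434 CPM in the Hoxa deletion (SD, n = 3) and 10.99 ± 0.486 CPM in the Hmx1 deletion (SD, n = 2).

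Of 15 somite and presomitic mesoderm regulators, the Notch ligand gene Dll3 rose by 0.37, and Foxc2 (-0.51, on chromosome 8) and Dll1 (-0.17) fell. Foxc2 was the most strongly marked of that list at 81.3 CPM per kb and Tbx6 the least at 5.08. Among 12 muscle progenitor regulators only Eya1, a transcriptional cofactor gene, passed (0.44), and Six4 was the weakest of the list at 6.38 CPM per kb. Among 10 heart field regulators only Smyd1, a muscle methyltransferase gene, passed (0.36). It was the weakest of the list at 6.88 CPM per kb, with Tbx20 the strongest at 76.6. Of 14 tested muscle targets, Chrna1, which encodes a subunit of the acetylcholine receptor, rose by 0.44, and Acta1 (-0.70) and Cdh15 (-0.57), both on chromosome 8, fell. The muscle targets had a median of 12.4 CPM per kb against 28.1 to 54.8 for the regulator lists, from Ttn at 5.35 to Acta1 at 38.3. In each of these 4 lists 1 gene rose, a smaller share than the 12.4% over all genes. Over all genes 6.40% were lower, and 3 of the 4 genes that fell in these lists lie on chromosome 8. No gene of the 6 lists passed in the Wnt6 deletion. The mESC marker Klf4 rose by 0.58 in the Hoxa deletion, and its part in the values of Tcf15 and Mesp2 was not tested.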

How the data were processed

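H3K27me3 Cut&Tag libraries of 3 deletions were analysed (7 libraries). The authors deposited raw counts of each library over a shared peak list, with no normalization. Per the labels, reads were processed with the mm10 build and with Bowtie2, Trimmomatic, SAMtools, Picard, MACS2 and deepTools. Versions, the treatment of duplicates, how the peak list was made, whether reads or fragments were counted and whether starts count from 0 or 1 are not given in the sources used here. The IgG libraries were not analysed here, so no background was subtracted. The genes and gene lists were chosen with earlier results of these data known.

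Gene bodies came from RefSeq GRCm38.p6, and counts were summed over peaks within 10 kb of each of 17003 protein-coding genes. Tests used edgeR 4.0.16 in R 4.3.3 (filterByExpr by genotype, which removed 17 of 74458 peaks and no member peak, TMM factors, glmQLFit and glmQLFTest), with each deletion against the other 2 pooled, as the study compared each with the others. P-values were adjusted by Benjamini-Hochberg over all 74441 peaks or all gene sums. Calls of peaks needed both an adjusted p under 0.05 and a log2 fold change beyond 1 in either direction, and a gene sum passed at an adjusted p under 0.05. Intervals were derived from the F statistic. DESeq2 1.42.0 and limma 3.58.1 served alternatives, and plots used Python 3.11.15 with matplotlib 3.10.9. The procedure was tested on simulated counts. Totals ranged from 6016500 to 36563541 counts, and the smaller libraries give less precise values. Named from each list were up to 4 passing genes and the highest and lowest gene per kb, and for Hand2 the 10 genes of highest r. Replicate numbers did not pair the libraries. The tested alternatives were the tool, scaling, filters, design, depth, left-out libraries and the gene window. Promoter windows were matched by symbol in a RefSeq table, which held 6 of the 10 genes.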

Additional observations from a re-analysis of the deposited data

How the results depend on the processing

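Of 804 values recomputed under alternatives, 733 kept their direction and their side of the threshold or, for counts and medians, stayed within 1.5 times or the spread. In the Hoxa deletion, Tcf15 (log2 fold change 0.63 to 1.16), Mesp2 (0.26 to 0.34) and Myog (-0.33 to -0.25) passed under all 20 alternatives that kept the 10 kb window, and Hand2 under 18 of 19. With other windows, 3 member gene sums passed within 0 kb, 4 within 5 kb and 3 within 25 kb. The window of 0 kb leaves out the peaks over Ppfia4, 4442 and 5368 bp from Myog, that held its lower signal. With chromosome medians removed, Hand2 turned to 0.014 in the Hoxa deletion and to -0.090 in the Wnt6 deletion. The largest adjusted p of those that passed was 0.0167. Abundance offsets (cyclic loess over peaks) and fits without chromosome 8 were added after seeing the data.

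The member peaks called in the Hoxa deletion, 0 in the report, were 2 against the Hmx1 deletion alone. Those 2 were at Tcf15 and Hand2, and 1.71% of all peaks were called in that comparison. The number was 2 within 25 kb (both at Hand2), 1 with abundance offsets, and 0 to 2 with a library left out. The latter 2 were those of Tcf15 and Hand2 without the Wnt6 deletion replicate 2. In the Hmx1 deletion the calls were 1 with DESeq2, 2 against the Hoxa deletion alone (1.71% of all peaks) and 1 without chromosome 8. With a library left out there were 0 to 1, the 1 being Tcf15 without either Wnt6 deletion library. Gene sums passing in the Wnt6 deletion were 4 against the Hoxa deletion alone (15.0% of all genes). In the Hmx1 deletion they were 1 with DESeq2 and 2 with a term for each genotype (11.3% of all genes). Against the Hoxa deletion alone they were 4 (22.4% of all genes). With a library left out they were 0 to 1. The 1 was Tcf15 without the Wnt6 deletion replicate 2 (log2 fold change -1.04, adjusted p = 0.0319 in edgeR). The cause of these changes was not tested.

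The median of the member peaks in the Hoxa deletion (-0.07) was 0.010 with chromosome medians removed, -0.023 against the Wnt6 deletion alone, -0.12 against the Hmx1 deletion alone, -0.040 within 0 kb, -0.027 without chromosome 8, and -0.096 to -0.036 with a library left out. In the Hmx1 deletion (0.11) it was 0.080 with library totals alone, 0.065 with chromosome medians removed, 0.12 against the Hoxa deletion alone, 0.096 against the Wnt6 deletion alone, 0.18 with downsampled counts, 0.027 within 0 kb, 0.075 with abundance offsets, 0.061 without chromosome 8, and 0.089 to 0.14 with a library left out.

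Besides those of Hand2 above, the following directions turned, none of them in a value that passed. In the Hoxa deletion these were Myod1 (0.0049), Hand1 (0.00092) and Twist1 (0.0099) against the Wnt6 deletion alone, Mesp1 against the Hmx1 deletion alone (-0.058) and without chromosome 8 (-0.018), and Myod1 with abundance offsets (0.024). With a library left out, Myod1 ranged from -0.080 to 0.0035 and Mesp1 from -0.028 to 0.041. In the Wnt6 deletion they were Hand2 (-0.12) and Tcf15 (0.53) against the Hmx1 deletion alone, and with a library left out Myod1 ranged from -0.12 to 0.048, Hand1 from -0.10 to 0.011 and Twist1 from -0.16 to 0.042. In the Hmx1 deletion they were Myog (-0.054) and Mesp2 (0.083) against the Wnt6 deletion alone, Myod1 (-0.014) with abundance offsets, and the shared sum of Myf5 and Myf6 with chromosome medians removed (0.0013), against the Hoxa deletion alone (0.065) and with a library left out (-0.20 to 0.10). With the replicate block, 4 gene sums passed in the Hoxa deletion and 0 in the others, with a median of -0.06 in the Hoxa deletion. Deviations of libraries with the same number correlated between -0.04 and 0.08, so the numbers were not taken as pairs. Small peaks, such as the one at Tcf15 with 0 counts in 1 library, limit what can be told at this depth.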
